A study of Mus musculus with 6 samples.

Results

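Gamt encodes guanidinoacetate N-methyltransferase, the enzyme that makes creatine, and its RNA was followed here through 1 catalogue probe on 6 mouse sperm microarrays. The probe, A_51_P484869, carries the RefSeq accession NM_010255, which RefSeq's GRCm38.p6 gene table pairs with the symbol Gamt. It was 1 of 60691 probes analysed and 1 of 45 catalogue probes with a gene symbol in the sources used here. It was printed at 10 spots on each array. The files give neither a sequence nor a position for the probe, so the exon it binds is not stated here.

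The samples were sperm of male C57BL/6 mice. Control males drank control water and Cd males drank water with CdCl2 (cadmium chloride) at 100 mg/L. Both began at an age of 5 weeks, lasted 10 weeks and ended with the collection of sperm at 15 weeks. Each group had 3 arrays, which the labels call biological replicates. The labels do not say how many animals gave each sample. On each array the immunoprecipitated (IP) RNA of a sample carried the red dye Cy5 and the supernatant RNA of the same sample the green dye Cy3. What the IP antibody bound is not stated in the labels. With no dye swap described, dye and fraction cannot be told apart.

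Creatine is made from arginine and glycine: Gatm, an amidinotransferase, forms guanidinoacetate, and Gamt then adds a methyl group taken from S-adenosylmethionine. Slc6a8 carries creatine into cells, and creatine kinases such as Ckb, Ckmt1 and Ckmt2 store and move energy as phosphocreatine. In sperm of some species the phosphocreatine system is described as a buffer of ATP between the mitochondria of the midpiece and the beating flagellum. Of 20 listed genes of creatine and methyl-donor metabolism, Gamt alone had a probe with a symbol here. The rest of the pathway could therefore not be read.

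The arrays differed in brightness and in a control of RNA quality. The share of probes well above background in the supernatant channel was 35.2% to 44.1% in control and 45.6% to 49.9% in Cd, without overlap. In the IP channel it was 28.2% to 44.8% and 43.8% to 49.4%, with overlap. Mouse Gapdh control probes at the 5′ and 3′ ends of the transcript can differ more when RNA is broken, and their log2 difference, 5′ minus 3′, lay lower in Cd in both channels. It was -1.48 to -1.38 in control and -1.91 to -1.82 in Cd for the IP, and -0.55 to -0.15 against -0.80 to -0.57 for the supernatant. The scan time in the file headers is the same for all arrays of a group and differs between the groups, so treatment cannot be told apart from scan below. Of 38 listed markers of sperm and of other cells of the male tract, 0 had a probe with a symbol, so the tissue label was not checked against them.

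Gamt RNA gave a strong signal in both fractions of every sample. All 10 spots were well above background in both channels on all 6 arrays and 0 were saturated. The median scanner signal of the spots was 50.5 to 109 times the local background in the IP channel and 51.5 to 101 times in the supernatant channel. Of the 60 spots, 3 carried an outlier flag and were left out, 1 each on control replicate 2, Cd replicate 2 and Cd replicate 3.

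The background-subtracted scanner signal of Gamt, before the dyes were balanced, was 718, 1335 and 1499 in the IP channel of control replicates 1 to 3 and 1693, 1582 and 962 in Cd. The means were 1184 ± 412 and 1412 ± 394 (SD, n = 3 each, 2-sided exact permutation p = 0.5). In the supernatant channel the signals were 696, 1069 and 965 in control and 1256, 869 and 642 in Cd, with means of 910 ± 193 and 922 ± 311 (exact permutation p = 1). The groups overlapped in both channels.

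The processed intensity carries a dye factor of its own for each array. After this step, and before the scaling on the 75th percentile, the mean IP intensity of Gamt was 14983, 21432 and 20487 on control replicates 1 to 3 and 21201, 19192 and 15587 on Cd replicates 1 to 3. Control replicate 1 and Cd replicate 3 were the low arrays, and the groups overlapped. The group means were 18967 ± 3483 and 18660 ± 2845 (SD, n = 3 each, 2-sided exact permutation p = 0.9). The supernatant intensity was 10937, 17997 and 17151 in control and 13808, 16228 and 8941 in Cd. The same arrays, control replicate 1 and Cd replicate 3, were lowest there, and the means of 15361 ± 3855 and 12992 ± 3711 overlapped as well (exact permutation p = 0.5).

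**Figure D1:**
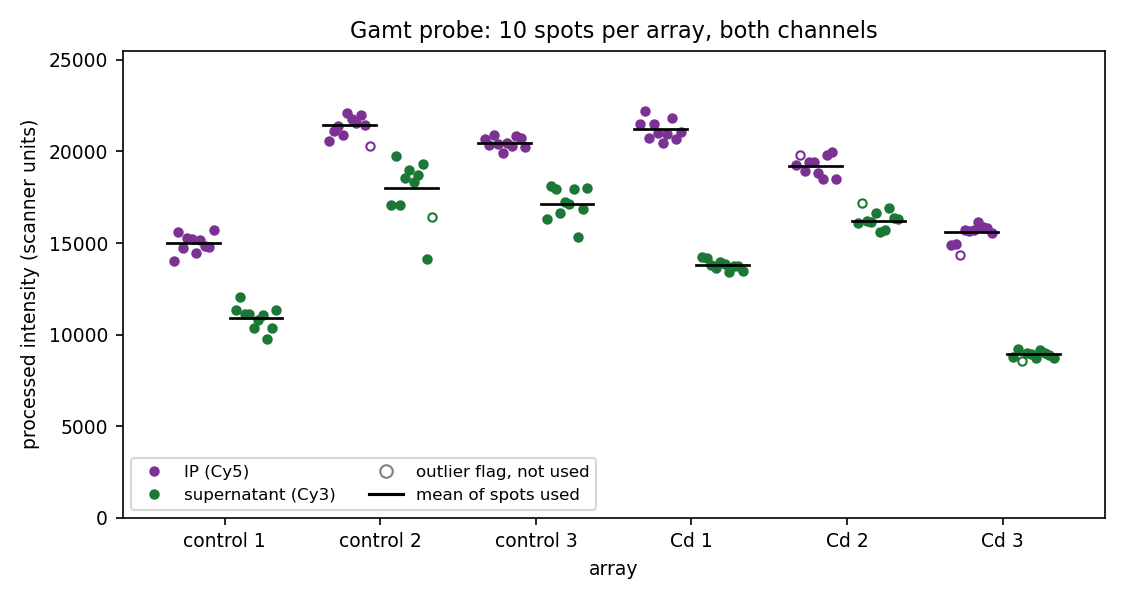
Processed intensity of the Gamt probe, in scanner units, at its 10 spots on each of the 6 arrays, with IP in purple and supernatant in green; open circles are spots with an outlier flag and black lines are means of the spots used. IP spots, after dye balancing, lie above supernatant spots in mean on every array, and control replicate 1 and Cd replicate 3 are the low arrays.

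After dye balancing the IP signal exceeded the supernatant signal in 57 of 57 spots used. Before it, this held for 55 of 57, and the other spots were on control replicate 1. The uncentred log2 ratio of single spots ran from 0.10 to 0.85. Its SD among the spots of an array was 0.03 to 0.14, with a median of 0.07. The means of the arrays varied more than that, with an SD of 0.11 in control and 0.29 in Cd. Before dye balancing the SD was 0.30 in control and 0.22 in Cd, so which group was the wider depended on that step. The spots are repeats on an array and do not count as replicates of a group. Control replicate 2 had the widest spots, where 1 spot at 0.60 lay beyond the array mean of 0.26.

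Centred on the median ratio of each array, the Gamt log2 ratio was 0.43, 0.28 and 0.24 in control. It was 0.62, 0.28 and 0.72 in Cd. Cd replicates 1 and 3 lay above all control arrays, while Cd replicate 2 lay within the control range. This order belongs to the dye-balanced signals. Before balancing and centring, the log2 ratio was 0.045, 0.33 and 0.64 in control and 0.43, 0.86 and 0.58 in Cd, where Cd replicate 2 was the highest array and the other Cd arrays lay within the control range (means 0.34 ± 0.30 and 0.63 ± 0.22, exact permutation p = 0.3). For the dye-balanced and centred ratio, which limma tested, the group means were 0.32 ± 0.10 and 0.54 ± 0.23 (SD, n = 3 each). The limma log2 difference, Cd minus control, was 0.23 (SE 0.25), or 1.17-fold, with a 95% interval from 0.79-fold to 1.72-fold. It did not pass the test (unadjusted p = 0.385, limma adjusted p = 0.966 over 23788 probes). The exact permutation p was 0.2, where 3 arrays against 3 allow no value below 0.1. Over all probes of the ratio test, 0.0042% were called at an adjusted p under 0.05 and 51.2% had a larger absolute difference than Gamt. Without Cd replicate 3 the difference was 0.14 and without Cd replicate 2 it was 0.36. It was 0.093 with no dye normalization and 0.41 with spike-in centring.

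Among other RNAs the control ratio of Gamt lay somewhat to the IP side of the middle. Its mean stood at percentile 62.4 of the probes tested, with 8934 probes above it. On single control arrays the percentile was 67.5, 58.3 and 58.4, and on the Cd arrays it was 72.6, 59.4 and 76.4. Among the 27 tested probes with a symbol, Gamt ranked between 15 and 19 from the top on every array. The side depends on the zero that is chosen. Centred on 14 spike-in probes, recognised by name only, the ratio was -0.53 in control and -0.12 in Cd. With loess, which compares a probe with others of like brightness, it was 0.41 and 0.64. No test was made of the ratio against 0.

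**Figure D2:**
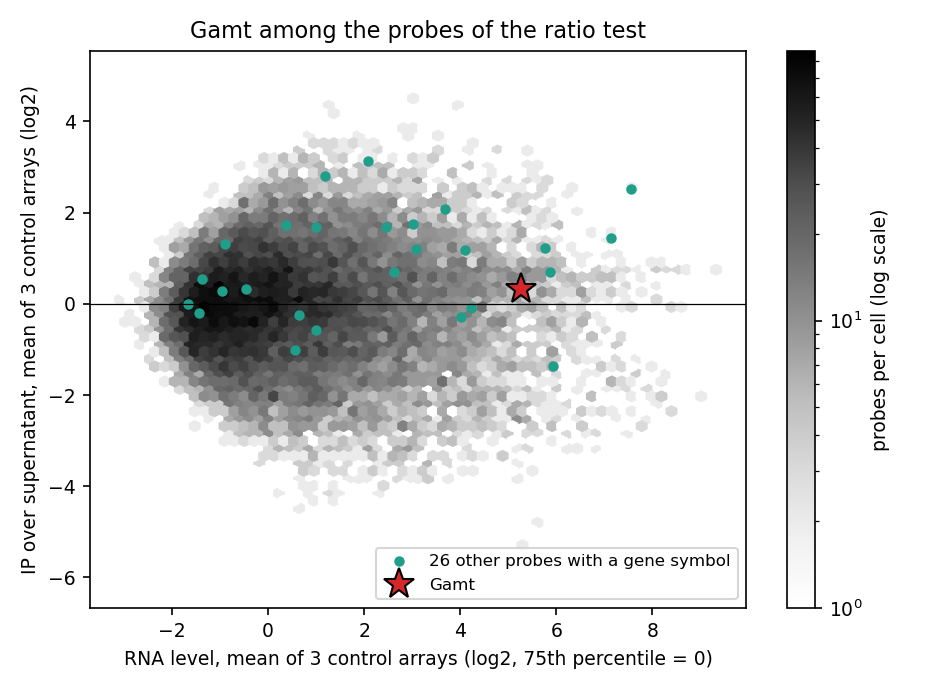
IP over supernatant log2 ratio (centred on the array median) against RNA level (log2, 75th percentile of each array at 0), both as means of 3 control arrays, for the 23788 probes of the ratio test; grey shade counts probes on a log scale. Gamt (star) lies among the brightest probes, at a ratio of 0.32, close to the middle of the ratios.

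In brightness the probe was near the top of the array. The RNA level, the log2 of both processed channels summed and set against the 75th percentile of the array, placed Gamt above 96.7% of the 30518 probes tested in the control mean. On every array 94.6% to 96.8% of these probes were dimmer. In the single channels the control mean lay above 96.9% of probes for the IP and 95.7% for the supernatant. Probes differ in how well they bind, so these are ranks of brightness and not of RNA amount.

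Once scaled, the Gamt level was lower on every Cd array than on every control array. It was 5.30, 5.32 and 5.19 in control and 5.03, 5.06 and 4.67 in Cd. Cd replicate 3 lay furthest down. The means were 5.27 ± 0.07 and 4.92 ± 0.22 (SD, n = 3 each). The limma difference was -0.35 (SE 0.19), or 0.78-fold with a 95% interval from 0.58-fold to 1.07-fold, and did not pass (unadjusted p = 0.104, limma adjusted p = 0.542). The exact permutation p was 0.1, the smallest possible. Separation of this kind was common: 8.87% of all probes tested were lower on every Cd array and 10.6% higher, while 0.0% were called at an adjusted p under 0.05. At an unadjusted p under 0.05, limma had 1885 probes higher and 1244 lower. The Gamt separation belongs to the scaled values, as the processed intensities of both channels overlapped between the groups before scaling. The 75th percentile of the level, which was subtracted, was 9.36 on control replicate 1 and 9.92 to 10.07 on the other arrays.

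Both fractions leaned the same way. The scaled IP signal of Gamt was 5.66, 5.58 and 5.43 in control and 5.41, 5.28 and 5.11 in Cd. The groups did not overlap, but the gap between control replicate 3 and Cd replicate 1 was narrow. The difference was -0.29 (SE 0.23, 95% interval -0.82 to 0.24, limma adjusted p = 0.759, exact permutation p = 0.1). Of all probes of this test, 8.63% were lower without overlap and 0.0% were called (919 lower and 1275 higher at an unadjusted p under 0.05).

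The supernatant signal showed the larger difference of the fractions. It was 5.11, 5.31 and 5.17 in control and 4.79, 5.05 and 4.32 in Cd, again without overlap. The difference was -0.48 (SE 0.24), or 0.72-fold with a 95% interval from 0.49-fold to 1.05-fold (unadjusted p = 0.0799, limma adjusted p = 0.537, exact permutation p = 0.1). Among all probes of this test, 7.14% had a lower difference than Gamt, 6.65% were lower without overlap and 0.0% were called (803 lower and 1767 higher at an unadjusted p under 0.05). Without Cd replicate 3 the supernatant difference was -0.28 and the level difference -0.23. Without Cd replicate 2 the supernatant difference was -0.64, with a 95% interval from -1.22 to -0.07 and a limma adjusted p of 0.432. Control replicate 1 and Cd replicate 3 had the lowest processed Gamt intensity before scaling, though control replicate 1 was not low once scaled. Without both of these arrays the differences were -0.32 for the supernatant, -0.16 for the IP and -0.21 for the level. Whether the fractions differed in their change is what the ratio comparison tests, and that did not pass.

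The size of these differences changed with the treatment of background and dyes. With normexp correction of the scanner signals and an offset of 50, the level difference was -0.021 and the IP difference 0.076. For the supernatant it was -0.13. This setting also left the single channels without dye balancing and gave the level the linear dye factors only. It therefore changed background and dyes together. With no dye normalization the difference was -0.18 for the IP and -0.22 for the supernatant. The median over all probes tested also moved in that setting, to 0.22 and 0.23. Gamt minus that median was -0.39 for the IP and -0.45 for the supernatant, against -0.31 and -0.49 in the main setting. Scaling on the 14821 probes well above background in both channels on all 6 arrays gave -0.37 for the level. With quantile normalization the level difference was -0.46 and its 95% interval, -0.91 to -0.02, excluded 0, with a limma adjusted p of 0.493. The IP difference there was -0.47. The supernatant difference there was -0.58, with an interval from -1.13 to -0.04 and a limma adjusted p of 0.530. Brightness and the Gapdh value moved with the groups in the same arrays, and their part in the Gamt differences was not tested.

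**Figure D3:**
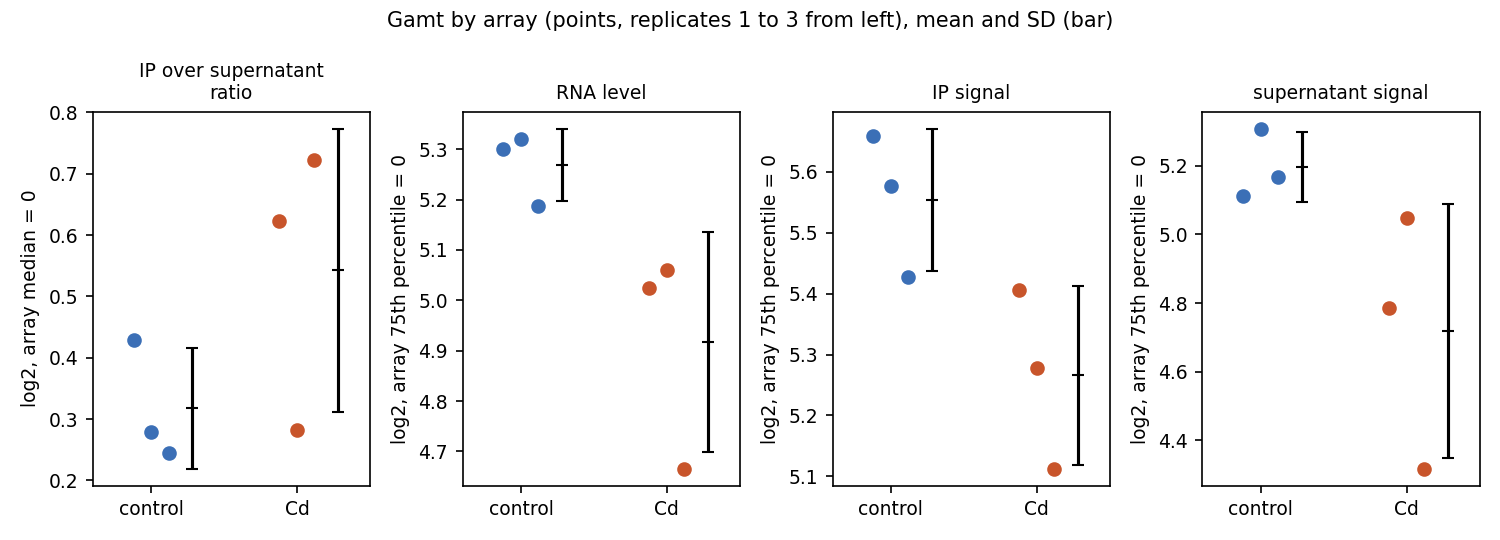
The 4 Gamt measures by array (points, replicates 1 to 3 from left to right) with the mean and SD of each group (bar), on log2 scales centred on the array median (ratio) or 75th percentile (other panels); the axes do not start at 0. The ratio overlaps between groups, while the level and both single-channel signals are lower on all 3 Cd arrays by 0.35, 0.29 and 0.48 on average, and none passes the test across all probes.

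**Figure D4:**
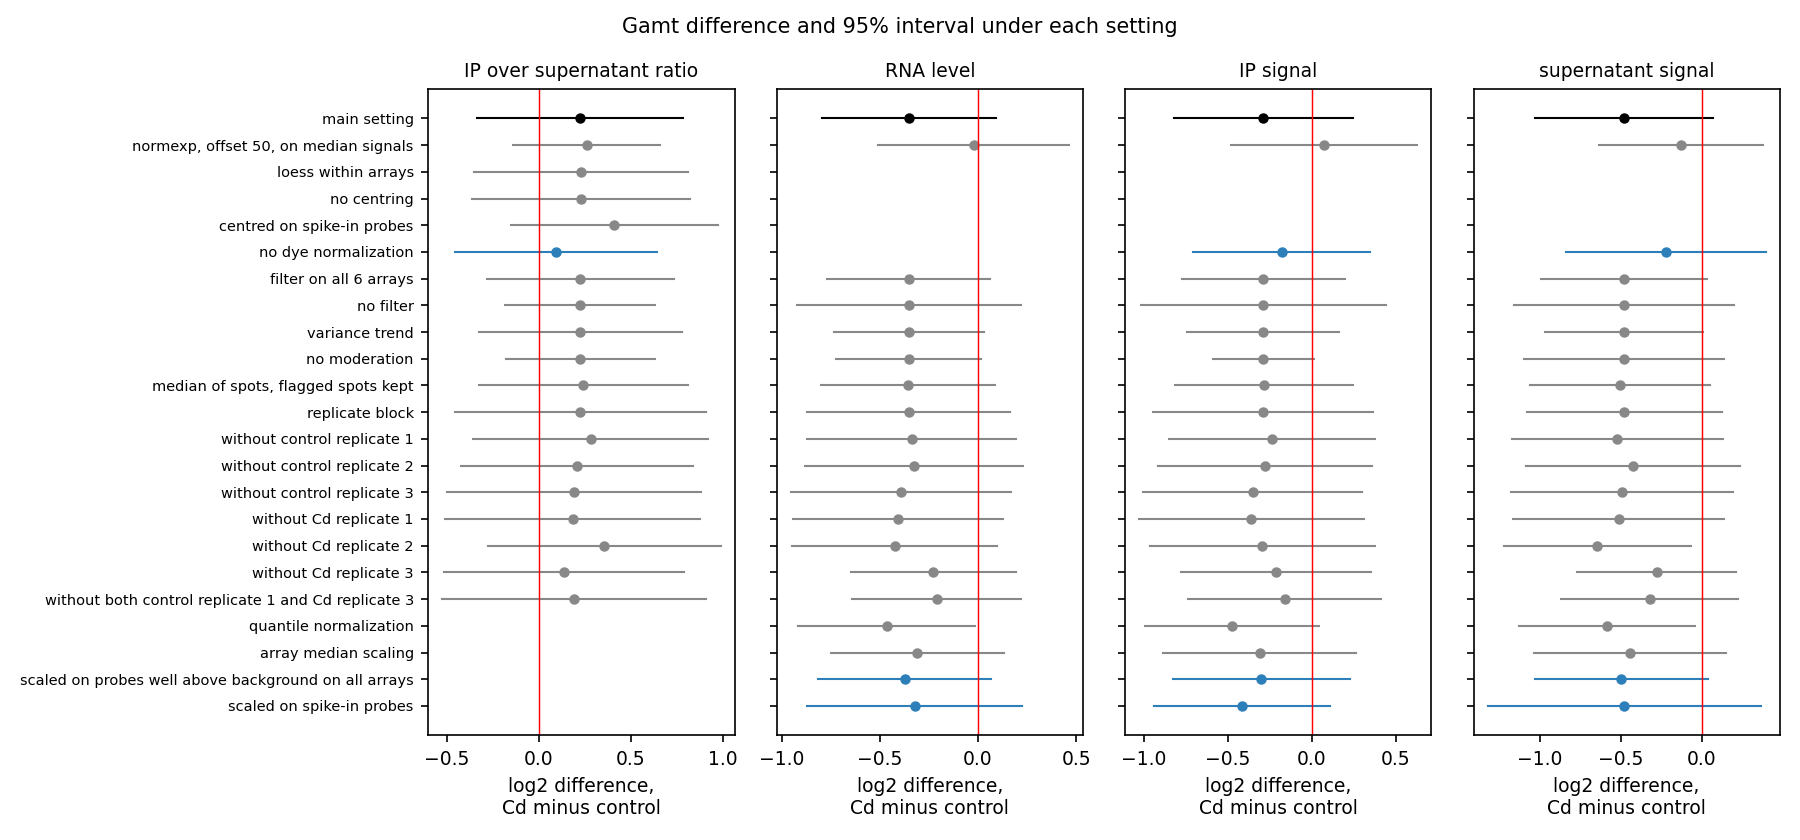
Log2 difference of Gamt, Cd minus control, with its 95% interval, for each measure and setting; black is the main setting, grey the other settings and blue those added after the data were seen, and a blank marks a setting that does not apply to a measure. The ratio stays above 0 and the supernatant below 0 in every setting shown, the IP signal crosses 0 with normexp, and all but 3 of the intervals span 0.

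The spread of Gamt between arrays of a group was below the median of all probes, and least so in the supernatant. The Gamt value averages up to 10 spots on an array, and the probe is among the brightest. The part of either in this spread was not tested. The pooled SD of Gamt was 0.16 for the level, against a median of 0.29 over all probes tested. For the ratio it was 0.18, against 0.37. In all, 14.5% of probes had a smaller SD for the level and 9.28% for the ratio. The IP signal had a pooled SD of 0.13 against 0.38, and the supernatant one of 0.27 against 0.31, with 39.0% of probes below it. The SE of the level given above is larger than this spread alone would make it, because limma draws each probe's variance toward that of all probes. With no such moderation the level difference kept its size, with an SE of 0.13, and the limma adjusted p was 0.480.

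Most of the tested probes with a symbol lay on the same side of 0 as Gamt in each measure. For the level, 28 of 36 were lower in Cd and 8 higher, with a median difference of -0.18, against -0.0008 over all 30518 probes. Gamt had the 11th lowest difference of the 36. For the ratio, 19 of 27 were higher and 8 lower, with a median of 0.23, the same rounded size as that of Gamt, against 0.04 over all 23788 probes. In the supernatant 20 of 27 were lower, with a median of -0.20 against 0.014 over all 26878 probes, and Gamt ranked 4th lowest. In the IP signal 25 of 36 were lower, with a median of -0.20 against 0.026 over all 27413 probes, and Gamt ranked 13th lowest. The probes share the same 6 arrays and are not independent of each other. The medians over all probes depend on the filter. With no filter, over 60115 probes, they were -0.25 for the level, -0.31 for the IP, -0.28 for the supernatant and 0.0068 for the ratio. The medians of the probes with a symbol given above are over those that passed the filter. They therefore cannot be set against the medians without a filter. The share of all probes that were lower in Cd was not counted, so whether these counts are unusual cannot be told.

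The genes nearest to Gamt in ratio were Olfr166, Tm9sf1 and Duox1. Nearness was the root mean square difference of the centred log2 ratio over the 6 arrays, among 26 other genes. It was 0.23 for Olfr166, an olfactory receptor, whose ratio was 0.32 ± 0.11 in control and 0.31 ± 0.19 in Cd. It was 0.41 for Tm9sf1, a membrane protein of the transmembrane 9 superfamily, with ratios of -0.09 ± 0.20 and 0.22 ± 0.23. For Duox1, an oxidase that makes hydrogen peroxide, it was 0.48, with ratios of 0.54 ± 0.31 and 0.98 ± 0.44. None of these 3 passed the limma test (adjusted p of 0.999, 0.963 and 0.961). Nearness here counts the height of the ratio as well as its pattern over the arrays. The Pearson correlation with Gamt over the 6 arrays was 0.25 for Olfr166, 0.61 for Tm9sf1 and 0.40 for Duox1. These genes were picked over these same arrays, so their nearness follows from the choice.

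In the pattern of the level over the arrays, after each gene's own mean was removed, Alkbh4, Carhsp1 and Prdx2 lay nearest among 35 genes. The root mean square difference was 0.07 for Alkbh4, an AlkB-family dioxygenase, 0.08 for Carhsp1, an RNA-binding cold-shock domain protein, and 0.10 for Prdx2, an antioxidant peroxiredoxin. Their level differences were -0.37 (SE 0.18), -0.26 (SE 0.18) and -0.30 (SE 0.22), and none passed (limma adjusted p of 0.506, 0.640 and 0.646). All 4 genes, Gamt included, were lowest on Cd replicate 3. The genes were picked for nearness over these same arrays, so this likeness follows from the choice. Some others of the 35 genes were lowest there as well, and some were not. The share over all probes was not counted. The level of Prdx2 overlapped between the groups, as Cd replicate 2, at 5.86, lay above control replicate 2, at 5.83.

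**Figure D5:**
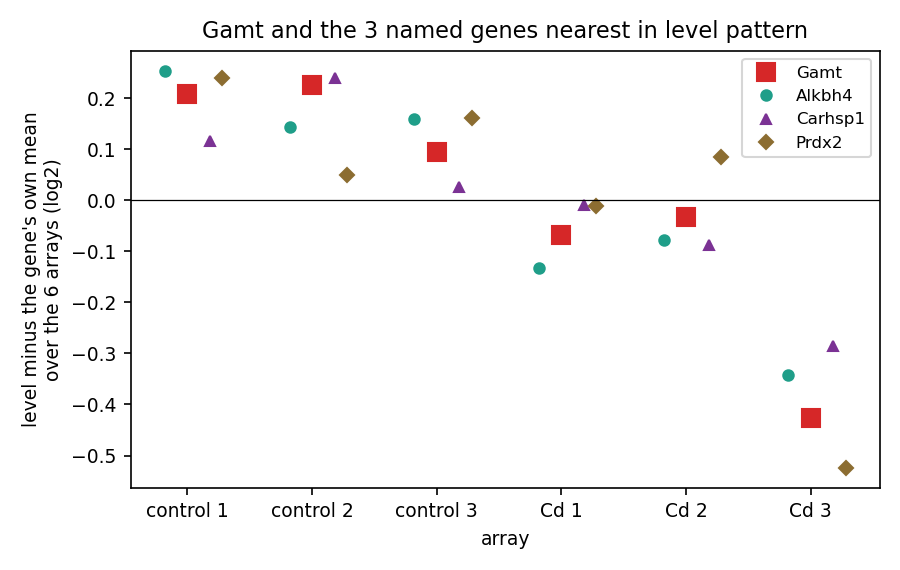
RNA level of Gamt and of Alkbh4, Carhsp1 and Prdx2 on each array, as log2 difference from each gene's own mean over the 6 arrays (points shifted sideways for clarity). All 4 genes are lowest on Cd replicate 3, and Gamt, Alkbh4 and Carhsp1 are higher on every control array than on any Cd array. The other genes were picked as nearest to Gamt over these same arrays, so the likeness follows from the choice.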

How the data were processed

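Spots were quantified by the authors with Agilent Feature Extraction 11.0.1.1, per the submitters' processing notes. The deposited processed intensity had its background subtracted and the dyes balanced by a linear factor and lowess, per the file headers. It matched the log10 ratio that the authors deposited for the Gamt spots. The series matrix deposited by the authors gives log2 values that equal log2 IP signal minus 1 constant per array, with column medians from -2.87 to -1.81. What the constant is stays unknown, and 0 of its rows are catalogue probes, so it gives no Gamt value.

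Spots with an outlier flag were removed and the rest averaged per probe on the log2 scale. The ratio was centred on the array median. Level and single channels were set against the 75th percentile. The dyes were balanced before summing, so the level weighs the fractions equally whatever their true amounts. Probes were tested when well above background on at least 3 arrays, in both channels for the ratio, at least 1 for the level, or the channel itself. Groups were compared with limma 3.58.1 in R 4.3.3 (lmFit and eBayes, 2-sided, Benjamini-Hochberg over all probes tested, threshold 0.05). The fit was tested on simulated data. The number of arrays limits the precision.

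Gamt and the lists were chosen with earlier results of these data known. Further genes were named by a fixed rule: the 3 nearest to Gamt in ratio and in level pattern. Alternatives covered background, scaling, filters, variance and arrays. A scan block could not be fitted, as each scan holds 1 group. Same-numbered arrays did not deviate together in all replicates, so numbers were not taken as pairs. Figures used matplotlib 3.10.9.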

Additional observations from a re-analysis of the deposited data

How the results depend on the processing

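Over the 74 alternatives run for the 4 Gamt measures, 0 passed the limma test (smallest adjusted p = 0.363), 1 reversed and 3 had a 95% interval that excluded 0. The IP difference reversed to 0.076 with normexp, and the cause was not tested. The ratio difference ranged from 0.09 with no dye normalization to 0.41 with spike-in centring, where the median of all probes moved to 0.23 and Gamt lay 0.18 above it. Leaving out 1 array at a time, it lay between 0.14 and 0.36, the level between -0.42 and -0.23, the IP signal between -0.36 and -0.21 and the supernatant between -0.64 and -0.28. With no filter the median difference of all probes was -0.25 for the level, -0.31 for the IP and -0.28 for the supernatant. Gamt minus that median was -0.098 for the level, 0.019 for the IP and -0.20 for the supernatant. With no dye normalization the median was 0.22 for the IP and 0.23 for the supernatant, where Gamt was at -0.18 and -0.22. The alternatives without dye normalization, and scaling of levels on spike-ins or bright probes, were added after seeing the data.

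For all probes, the count of 1 called for the ratio became 0 with normexp, spike-in centring, no dye normalization, the filter on all 6 arrays, no filter, the replicate block and without both control replicate 1 and Cd replicate 3, and 2 with no moderation. Leaving out 1 array at a time gave 0 to 1. The level count was 0 to 1 with 1 array left out, and 1 without Cd replicate 3. The supernatant count was 1 with the filter on all 6 arrays, with a variance trend and without both control replicate 1 and Cd replicate 3, 17 with spike-in scaling, and 0 to 1 when 1 array was left out. The causes were not tested. Same-numbered arrays were not paired (correlations of level deviations -0.41, 0.43 and 0.0038), and the block left the Gamt differences at 0.23 for the ratio and -0.35 for the level, with limma adjusted p of 0.999 and 0.665. The series table holds no Gamt row, and the scan block was not run. Gamt was well above background at all 60 spots.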
